A study of Mus musculus with 16 samples.

Results

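The genes described here lie side by side on mouse chromosome 5, in a block from 105 to 110 Mb of the mm10 genome build. A gene was a member if its start in the GENCODE annotation fell in this window and its mean level over the 16 libraries was at least 0.3 CPM, the usual depth-scaled unit of a gene's share of all reads counted in genes. Of 102 annotated genes of the count tables that start in the window, 48 were members, 52 were under the level limit (15 of them with no read in any library) and 2 were left out by name. Over the whole series, 17347 of 38924 genes met the same level. The members were chosen by this mean level, and the block itself was picked with the genotype results of these libraries known, so the genotype values below are a description and carry no test. The members are 38 protein-coding genes, 5 long intergenic RNAs, 3 processed pseudogenes and 2 snoRNAs, with 24 on each strand.

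The libraries hold mRNA of mouse brain punches whose label names the ventral posterolateral nuclei, through which the thalamus passes bodily sensation to the cortex. There were 4 groups of 4 libraries: mice labelled RGS4 KO and left naive, WT mice left naive, mice labelled RGS4 KO and given CFA, and WT mice given CFA. The labels do not spell out CFA or give the animals' age, each library pooled bilateral punches of 2 mice, and the sex label (female) differs from the protocol (male). The series text describes a floxed Rgs4 line in which an adeno-associated virus brought Cre recombinase into this nucleus, so cells that the virus did not reach would keep the gene. Whether the WT mice carried the floxed allele or received a virus is not stated in the labels.

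Rgs4, which codes for a protein that speeds the switching off of G proteins, lies on another chromosome and had much the same level in both genotypes. It averaged 81.3 ± 2.74 CPM in KO-labelled naive libraries and 80.9 ± 3.66 CPM in WT naive libraries (SD, n = 4 each). With CFA it averaged 84.1 ± 5.5 CPM in KO-labelled libraries and 89.3 ± 6.66 CPM in WT libraries. The gene was called in neither comparison, the genotype labels therefore have no check from its level, and the groups are named below as the libraries labelled KO. Gene counts per library were 18.1 to 43.7 M in KO-labelled naive, 36.4 to 54.7 M in WT naive, 24.4 to 78.8 M in KO-labelled CFA and 42.2 to 53.9 M in WT CFA libraries. The thalamic relay neuron markers (Tcf7l2, Slc17a6, Rora, Prkcd, Ntng1 and Lef1) were all present, with summed levels of 759 to 872, 724 to 785, 731 to 856 and 738 to 849 CPM in the same order of groups. The largest part of the sum was Slc17a6, at 432 to 535 CPM over all libraries. Prkcd and Lef1 were far lower, at 9.82 to 18 and 7.27 to 15.8 CPM. Of the 6 relay markers, Ntng1 was called higher in KO-labelled naive libraries (69.9 ± 3.14 CPM, against 62.1 ± 2.06 CPM in WT naive libraries). It was also called higher with CFA in WT (71.6 ± 2.61 CPM in WT CFA libraries). In CFA libraries its genotype difference went the other way and was not called (fold 0.933). Every KO-labelled CFA library (62.4 to 69.1 CPM) was then below every WT CFA library (69.7 to 75.4 CPM). The other 5 markers were called in no comparison. The GABA neuron markers Gad1, Gad2 and Slc32a1 summed to 969 to 1330, 931 to 1040, 926 to 1150 and 1000 to 1190 CPM in the same order. None of them was called. Summed markers of serotonin neurons, which lie outside the thalamus, were at 184 to 784, 512 to 1180, 524 to 780 and 103 to 617 CPM, with none of the 3 called. Summed levels of Cartpt and Ucn, markers of the Edinger-Westphal nucleus of the midbrain, were at 34.6 to 236, 14.5 to 58.1, 54 to 178 and 242 to 321 CPM, so with CFA every KO-labelled library was below every WT library. Their genotype folds were 3.19 and 3.83 in naive and 0.371 and 0.369 in CFA libraries, not called. The part of these markers in the genotype values of the block was not tested.

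Neighbouring genes on a chromosome need not share a function, and this block holds genes of unlike roles. It includes receptors for growth factors and cytokines, the lysosomal enzyme alpha-L-iduronidase, subunits of the volume-regulated anion channel, which lets swollen cells release chloride and organic solutes, a complexin that clamps and times vesicle fusion at synapses, and a set of zinc finger genes. In neurons and glia most of these act in unrelated pathways, and what the members share by choice is position and a minimum level.

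Along the block, 6 members were lower in the libraries labelled KO than in WT, in naive and in CFA libraries alike, and the other 42 were called in neither comparison. The 6 are Tgfbr3, Evi5, Idua, Crlf2, Gm15446 and Zfp932, in the order of their positions. Their fold changes (KO-labelled over WT) ran between 0.737 for Idua and 0.901 for Evi5 in naive libraries, and between 0.714 for Idua and 0.877 for Evi5 with CFA. A gene was called at a Benjamini-Hochberg adjusted p under 0.05 in edgeR's quasi-likelihood test over 18350 genes. The 6 make up 12.5% of the 48 members, beside 1.45% of all tested genes called in either direction and 0.752% called lower in naive libraries, and 1.6% and 0.954% with CFA. Of all tested genes, 0.392% were called lower in both. Since the block was picked with these comparisons known, nothing is read from those shares.

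Libraries that did not overlap were more common than calls. In naive libraries 7 members had every KO-labelled library below every WT library, the 6 and the pseudogene Gm8152, and 3 had them all above, namely Lrrc8d, Slc26a1 and Gm26779. With CFA there were 7 below, the 6 and Rpap2, and 5 above, namely Gm28050, Glmn, Gm22270, Gm10419 and Gak. These are 14.6% (below) and 6.25% (above) of the members in naive libraries, and 14.6% and 10.4% with CFA. Over all tested genes the same was true of 3.41% (below) and 3.83% (above) in naive libraries, and of 4.25% and 3.78% with CFA. The median log2 fold change of the 48 members was -0.01 in both treatments, and that of all tested genes was 0.00. Without regard to sign, the members' median was larger, at 0.11 against 0.07 in naive libraries and 0.14 against 0.06 with CFA. Since the block was picked with these comparisons known, nothing is read from these values either.

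**Figure D1:**
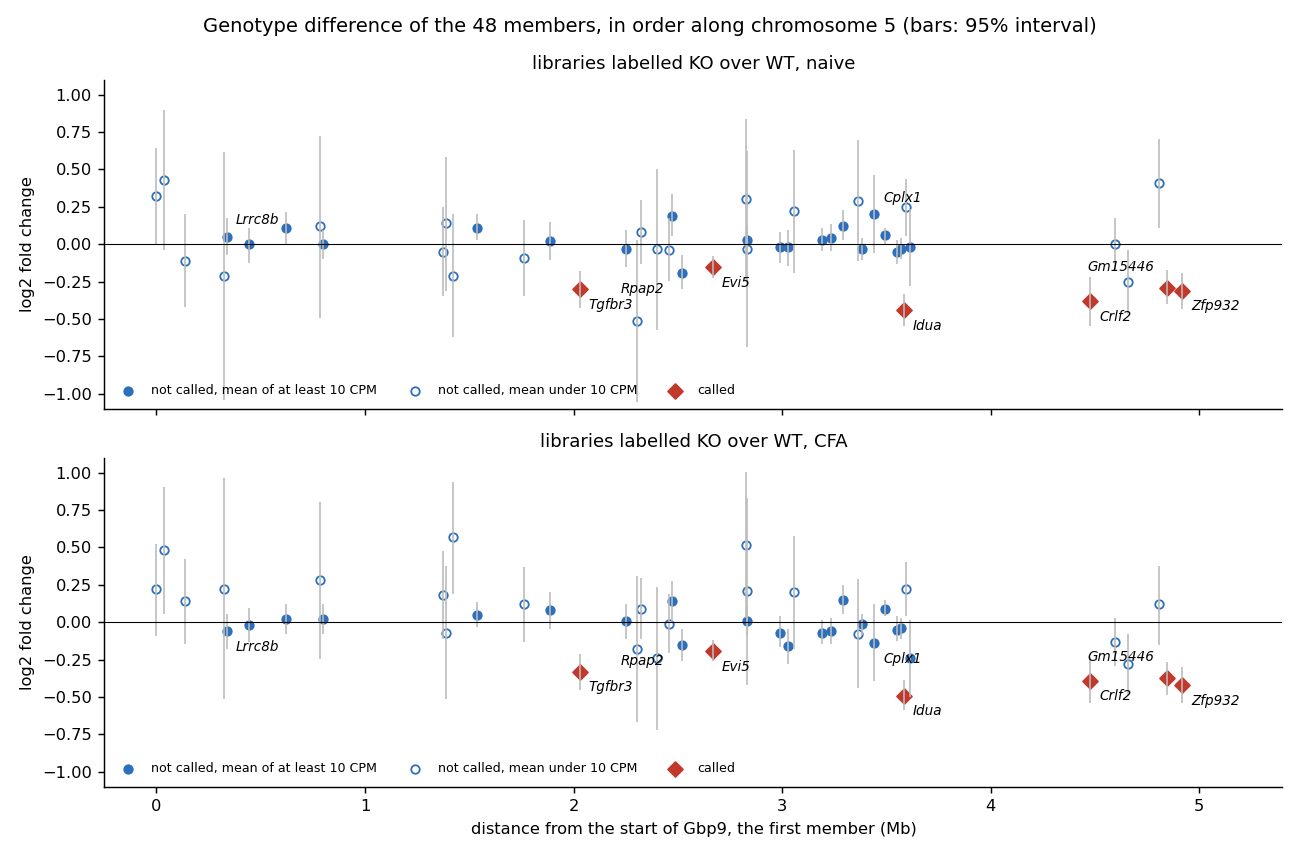
Genotype difference of each of the 48 members (log2 fold change, libraries labelled KO over WT, n = 4 each, with 95% intervals as bars) against its distance from the first member, Gbp9, in naive libraries (top) and CFA libraries (bottom). The 6 called members (diamonds) are below 0 in both panels, with uncalled members at 0 or on either side of it between them.

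Among the receptors, Tgfbr3 and Crlf2 were lower. Tgfbr3 (ENSMUSG00000029287.8, chr5:107106570-107289629, minus strand) codes for betaglycan, a co-receptor that binds TGF-beta at the cell surface and hands it to the signalling receptors. It had 15.4, 17.0, 15.9 and 14.5 CPM in KO-labelled naive libraries, against 18.4, 18.9, 20.1 and 19.9 CPM in WT naive libraries. With CFA it had 15.7, 14.5, 16.6 and 14.9 CPM in KO-labelled libraries, against 20.6, 18.1, 19.2 and 19.6 CPM in WT libraries. The highest KO-labelled library stayed below the lowest WT library in both treatments, and the fold was 0.81 (log2 fold change -0.30, SE 0.06) in naive and 0.795 (-0.33, SE 0.06) in CFA libraries.

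Tgfbr3 was also the only called gene among 11 TGF-beta family receptors (Tgfbr1, Tgfbr2, Tgfbr3, Eng, 4 Acvr and 3 Bmpr genes, all tested). The other 10 were called in no comparison. The lists of relatives, here and below, were chosen with earlier results of these data known. Of all tested genes, 1.45% were called by genotype in naive and 1.6% in CFA libraries. Few or no calls among the relatives is near these shares, and nothing is read from such counts. The signalling receptor gene Tgfbr1 averaged 36.0 ± 1.02 CPM in KO-labelled naive libraries and 33.4 ± 1.25 CPM in WT naive libraries. Tgfbr2 averaged 20.3 ± 1.68 and 20.7 ± 1.15 CPM in the same groups. Eng, the related co-receptor of endothelium, averaged 9.36 ± 0.507 and 9.97 ± 0.982 CPM. The summed endothelial markers Cldn5, Flt1 and Pecam1 spanned 75.7 to 79.7 CPM in KO-labelled naive, 67.6 to 77.3 in WT naive, 68.9 to 89.8 in KO-labelled CFA and 71.7 to 83.5 in WT CFA libraries, with none of the 3 called. In bulk tissue, fewer cells of a type and less RNA per cell cannot be told apart.

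Crlf2 (ENSMUSG00000033467.8, chr5:109554709-109558993, minus strand) codes for the receptor subunit that binds the cytokine TSLP. It had 7.7, 8.43, 7.34 and 7.59 CPM in KO-labelled naive libraries, against 10.5, 9.76, 9.48 and 10.8 CPM in WT naive libraries. With CFA the KO-labelled libraries had 8.31, 7.22, 9.05 and 7.67 CPM, against 10.5, 9.52, 10.9 and 11.1 CPM in WT libraries. The 2 sets did not overlap in either treatment, and the folds were 0.768 (log2 -0.38, SE 0.08) and 0.765 (-0.39, SE 0.07). It had 133 to 654 reads in a library, and shares no exon base with another gene. Its naive call was lost without WT naive library 4, with a log2 fold change of -0.35. The summed microglial markers Cx3cr1, Csf1r, P2ry12 and Tmem119 spanned 129 to 150, 127 to 137, 132 to 136 and 121 to 133 CPM in KO-labelled naive, WT naive, KO-labelled CFA and WT CFA libraries, with none called.

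A further receptor of the block, Fgfrl1, a relative of the FGF receptors without a kinase domain, was called in neither genotype comparison. It averaged 12.4 ± 2.23 CPM in KO-labelled naive libraries and 12.6 ± 1.32 CPM in WT naive libraries. With CFA it averaged 9.24 ± 1.02 CPM in KO-labelled libraries and 11 ± 1.54 CPM in WT libraries, and the libraries overlapped.

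Idua showed the largest difference of the called members. Idua (ENSMUSG00000033540.12, chr5:108660331-108684557, plus strand) codes for the lysosomal enzyme that removes iduronic acid from dermatan sulfate and heparan sulfate, and its loss causes mucopolysaccharidosis type I in people. It had 19.3, 23.9, 22.7 and 23.4 CPM in KO-labelled naive libraries, against 30.3, 30.2, 29.6 and 30.4 CPM in WT naive libraries. In CFA libraries it had 21.6, 21.2, 22.3 and 22.1 CPM in KO-labelled libraries, against 30.4, 30.5, 30.4 and 30.6 CPM in WT libraries. The gap between the groups was over 5 CPM in both treatments while the 8 WT libraries lay within about 1 CPM of each other, and KO-labelled naive library 5 was the lowest of all. The fold was 0.737 (log2 -0.44, SE 0.05, 95% interval of the fold 0.685 to 0.793) in naive and 0.714 (-0.49, SE 0.05, 0.666 to 0.767) in CFA libraries.

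Of 10 genes for lysosomal breakdown of glycosaminoglycans, Idua was the only one called in a genotype comparison, and none of the 10 was called for CFA or for the interaction. As for the receptors, the list was chosen with earlier results known, and this count is a description. Ids, which codes for the enzyme acting before it on the same chains, averaged 734 ± 17 CPM in KO-labelled naive libraries and 702 ± 11.4 CPM in WT naive libraries. Naglu, a heparan sulfate enzyme, averaged 7.95 ± 0.558 and 8.85 ± 0.489 CPM in these groups, and Gusb, the gene of beta-glucuronidase, 20.8 ± 0.629 and 21.2 ± 0.318 CPM. The median log2 fold change of the 10 was -0.01 in naive and 0.03 in CFA libraries.

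Idua overlaps its neighbours on the opposite strand, sharing 124 exon bases with Dgkq and 141 with Slc26a1 out of its 4204. The library kit does not mark strand, so reads in the shared stretches cannot be assigned with certainty. Slc26a1, a sulfate transporter gene that lies wholly within Idua, had 3.15, 3.5, 3.42 and 3.1 CPM in KO-labelled naive libraries, against 2.87, 2.79, 2.72 and 2.66 CPM in WT naive libraries. The CFA levels were 3.13, 3.29, 2.77 and 3.25 CPM in KO-labelled libraries, against 2.45, 2.73, 2.85 and 2.69 CPM in WT libraries. It was thus not low where Idua was low. Its folds of 1.19 (95% interval 1.04 to 1.35) and 1.17 (1.03 to 1.32) were not called. Dgkq, a diacylglycerol kinase gene, had 97.5, 106, 103 and 99.8 CPM in KO-labelled naive libraries, against 102, 102, 103 and 106 CPM in WT naive libraries. With CFA it had 98.2, 96.9, 90.9 and 98.3 CPM in KO-labelled libraries, against 95, 102, 97.5 and 101 CPM in WT libraries. These sets overlapped, with folds of 0.982 and 0.972. Dgkq in turn shares 2090 exon bases with Tmem175, the gene of a lysosomal potassium channel, whose folds were 0.965 and 0.969 and not called.

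The start of Idua is shown because it is the called member with the largest difference, and its sequence holds few CG pairs. The 300 bases span the RefSeq start, at chr5:108660081-108660380 of GRCm38.p6 on the plus strand, 5′ to 3′.
Idua promoter: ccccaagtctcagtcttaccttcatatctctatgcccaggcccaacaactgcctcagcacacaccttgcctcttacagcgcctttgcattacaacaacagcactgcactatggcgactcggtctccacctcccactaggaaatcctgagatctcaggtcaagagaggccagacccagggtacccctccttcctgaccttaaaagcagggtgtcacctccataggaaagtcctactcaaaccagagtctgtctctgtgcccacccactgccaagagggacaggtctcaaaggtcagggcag
None of the 4 motifs searched on both strands lies in it, so no letter is in capitals. The motifs were the GC box GGGCGG, the CCAAT box, the TATA box TATAAA and the E-box CACGTG, none of which contains another. They lie in 35.7%, 37.4%, 13.6% and 7.15% of the 32851 promoters of the same RefSeq table.

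Crlf2 is shown beside it as a called member with a CG-rich start, at chr5:109558944-109559243 on the minus strand, where capitals mark GC boxes on either strand.
Crlf2 promoter: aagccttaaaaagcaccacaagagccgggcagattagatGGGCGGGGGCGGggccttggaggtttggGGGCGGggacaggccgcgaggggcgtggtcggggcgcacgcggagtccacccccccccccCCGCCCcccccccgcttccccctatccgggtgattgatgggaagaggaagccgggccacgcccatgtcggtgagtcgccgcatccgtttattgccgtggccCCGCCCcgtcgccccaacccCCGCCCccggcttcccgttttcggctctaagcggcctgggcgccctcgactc
This stretch has 31 CG pairs against 3 in that of Idua, and 6 GC boxes. A promoter was at hand for 5 of the 6 called members (Evi5, Idua, Crlf2, Gm15446 and Zfp932) and for 30 of the other 42. A RefSeq start can lie inside the GENCODE gene and away from its start, as for Evi5 and Gm15446. Where a member has several listed starts, only the first was counted here. Later starts can hold other motifs, as that of Glmn holds GC boxes and those of Zfp644 and Mtf2 CCAAT boxes. A GC box was found in 2 of the 5 and in 22 of the 30, a CCAAT box in 2 and 9, a TATA box in 0 and 1, and an E-box in 0 and 5. The median number of CG pairs was 9 in the 5 and 30 in the 30, beside a median of 7 (quartiles 3 and 20) over all promoters of the table. The 5 thus span both kinds of start, with 30 CG pairs in the promoter of Evi5, 31 in Crlf2, 9 in Zfp932, 5 in Gm15446 and 3 in Idua.

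Among genes of membrane traffic, Evi5 was lower by the smallest fold of the 6. Evi5 (ENSMUSG00000011831.10, chr5:107744795-107875107, minus strand) codes for a TBC-domain protein that binds Rab11, a small GTPase of recycling endosomes. It had 77.4, 79.4, 75.9 and 77.6 CPM in KO-labelled naive libraries, against 82.2, 88.4, 86.9 and 86.9 CPM in WT naive libraries. In CFA libraries it had 73.3, 80.2, 78.3 and 75.8 CPM in KO-labelled libraries, against 90.1, 84.1, 90.2 and 86.0 CPM in WT libraries. The groups did not overlap, and the folds were 0.901 (log2 -0.15, SE 0.03) and 0.877 (-0.19, SE 0.03). The naive call of Evi5 is the least secure of the 6: it was lost in 8 of 13 fits, among them those without any single naive library other than WT library 1, while its log2 fold change stayed between -0.17 and -0.14. The CFA call was kept in all 13 fits of that comparison.

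Other traffic genes of the block were not called. Gak, a kinase gene that helps strip clathrin coats from vesicles, had 134, 139, 128 and 133 CPM in KO-labelled naive libraries, against 128, 129, 126 and 130 CPM in WT naive libraries. The CFA levels were 134, 132, 130 and 138 CPM in KO-labelled libraries, against 124, 126, 125 and 125 CPM in WT libraries. The CFA libraries did not overlap, and the fold of 1.07 (95% interval 1.03 to 1.11) was called by DESeq2 and not by edgeR. Of 7 clathrin uncoating genes, Gak among them, none was called in any of the 5 comparisons. Tmed5, a p24 cargo receptor gene of the early secretory pathway, had 29.6, 31.2, 30.1 and 33.8 CPM in KO-labelled naive libraries, against 32.3, 32, 30.9 and 31.2 CPM in WT naive libraries. Given CFA, KO-labelled libraries had 27.8, 25.3, 31.7 and 28.1 CPM, against 33.6, 29.9, 32.4 and 29.9 CPM in WT libraries. KO-labelled library 15 lay within the WT range. The folds were 0.986 and 0.894 (95% interval 0.823 to 0.971), not called, and the CFA difference was called without that library (log2 fold change -0.22). The other 7 p24 genes tested were not called in any of the 5 comparisons.

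Cplx1, the gene of complexin 1, was by far the most abundant member, at 286 CPM per kb of exon, against 2.67 for Tgfbr3, 5.34 for Gm15446, 5.57 for Zfp932, 6.1 for Crlf2, 6.23 for Idua and 10.2 for Evi5. It had 563, 649, 553 and 801 CPM in KO-labelled naive libraries, against 603, 504, 513 and 611 CPM in WT naive libraries. With CFA it had 707, 640, 533 and 601 CPM in KO-labelled libraries, against 628, 702, 700 and 702 CPM in WT libraries. The libraries were widely spread and overlapped, with folds of 1.15 (95% interval 0.961 to 1.38) and 0.909 (0.76 to 1.09). Of 8 complexin and SNARE genes tested, none was called in a genotype comparison.

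Gm15446 and Zfp932, the last pair of members along the block, were both lower, and their reads cannot be fully told apart. Zfp932 (ENSMUSG00000066613.8, chr5:109996521-110010411, plus strand) codes for a zinc finger protein, and Gm15446 (ENSMUSG00000090015.2, chr5:109923400-109943936, plus strand) is a predicted protein-coding gene that starts 73.1 kb before it. Over 1371 aligned coding bases they are 96.9% identical, with 42 mismatches, no gap and a longest identical run of 195 bases. The middle 150 bases of that alignment are given here to show how alike the genes are, at coding positions 818 to 967 of Zfp932 and 899 to 1048 of Gm15446, with the 1 base that differs in capitals.
Zfp932 coding stretch: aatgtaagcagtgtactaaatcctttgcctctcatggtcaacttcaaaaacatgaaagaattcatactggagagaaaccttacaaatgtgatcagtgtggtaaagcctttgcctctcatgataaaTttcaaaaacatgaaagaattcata
Gm15446 coding stretch: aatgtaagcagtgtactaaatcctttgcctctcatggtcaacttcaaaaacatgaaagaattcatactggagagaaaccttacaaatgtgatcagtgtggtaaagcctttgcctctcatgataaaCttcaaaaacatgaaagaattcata
Of the Zfp932 transcript 77.8%, and of the Gm15446 transcript 90.9%, is matched at 95% identity or more by another gene. The split of reads between them is therefore uncertain.

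Taken singly, Gm15446 had 16.2, 19.0, 18.3 and 19.2 CPM in KO-labelled naive libraries, against 21.4, 23.0, 22 and 21.7 CPM in WT naive libraries. In CFA libraries it had 16.9, 17.4, 19.0 and 17.5 CPM in KO-labelled libraries, against 22.3, 23.7, 22.5 and 22.9 CPM in WT libraries. The groups did not overlap, and the folds were 0.82 (log2 -0.29, SE 0.05) and 0.771 (-0.37, SE 0.05). Zfp932 had 15.7, 16.8, 16.2 and 17.3 CPM in KO-labelled naive libraries, against 18.8, 20.9, 21.1 and 21.0 CPM in WT naive libraries. The CFA levels were 14.1, 16.7, 14.8 and 16 CPM in KO-labelled libraries, against 21.1, 21.4, 19.8 and 20.2 CPM in WT libraries. Again no KO-labelled library reached a WT library of the same treatment, with folds of 0.805 (log2 -0.31, SE 0.06) and 0.747 (-0.42, SE 0.06).

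A sum of the pair does not depend on how counted reads were split between them. Reads that fit both copies alike are not in it, since reads not uniquely aligned were left out. Each transcript is also matched in part by a gene outside the pair. The sum was 31.8, 35.8, 34.4 and 36.5 CPM in KO-labelled naive libraries, against 40.2, 43.8, 43.1 and 42.8 CPM in WT naive libraries. With CFA the sum was 31.0, 34.1, 33.8 and 33.5 CPM in KO-labelled libraries, against 43.3, 45.1, 42.2 and 43.1 CPM in WT libraries. The sum did not overlap between groups and was called lower in both treatments, with folds of 0.813 (log2 -0.30, SE 0.05) and 0.76 (-0.40, SE 0.04). Counted as 1 gene, the pair leaves 5 called members.

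The start of Zfp932 is shown as the last along the block, at chr5:109996260-109996559 on the plus strand, and capitals mark its CCAAT box.
Zfp932 promoter: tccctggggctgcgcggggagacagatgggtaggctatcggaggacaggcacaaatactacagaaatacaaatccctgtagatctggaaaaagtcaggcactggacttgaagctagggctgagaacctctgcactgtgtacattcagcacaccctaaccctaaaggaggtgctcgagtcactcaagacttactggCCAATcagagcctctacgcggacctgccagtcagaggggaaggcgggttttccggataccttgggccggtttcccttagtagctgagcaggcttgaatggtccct
It has 9 CG pairs. The promoter of Gm15446 holds none of the 4 motifs. Its RefSeq start is at chr5:109933313-109933612, inside the gene and away from the GENCODE start at 109923400 that was used for membership.

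A further 4 members, 2 with sequence like the pair and 2 zinc finger genes, are set beside it. 4930522L14Rik shares 195 bases at 96.9% identity with Zfp932, averaged 4.24 ± 0.467 CPM in KO-labelled naive libraries and 5.01 ± 0.413 CPM in WT naive libraries, and had folds of 0.839 and 0.821, not called. 5430403G16Rik, with a shorter match of 190 bases to Gm15446, had folds of 1.0 and 0.914. Zfp326 and Zfp644, zinc finger genes near the block's start with levels of 37.8 and 67.2 CPM, had naive folds of 1.0 and 1.08 and CFA folds of 1.02 and 1.04. None of the 4 was called.

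**Figure D2:**
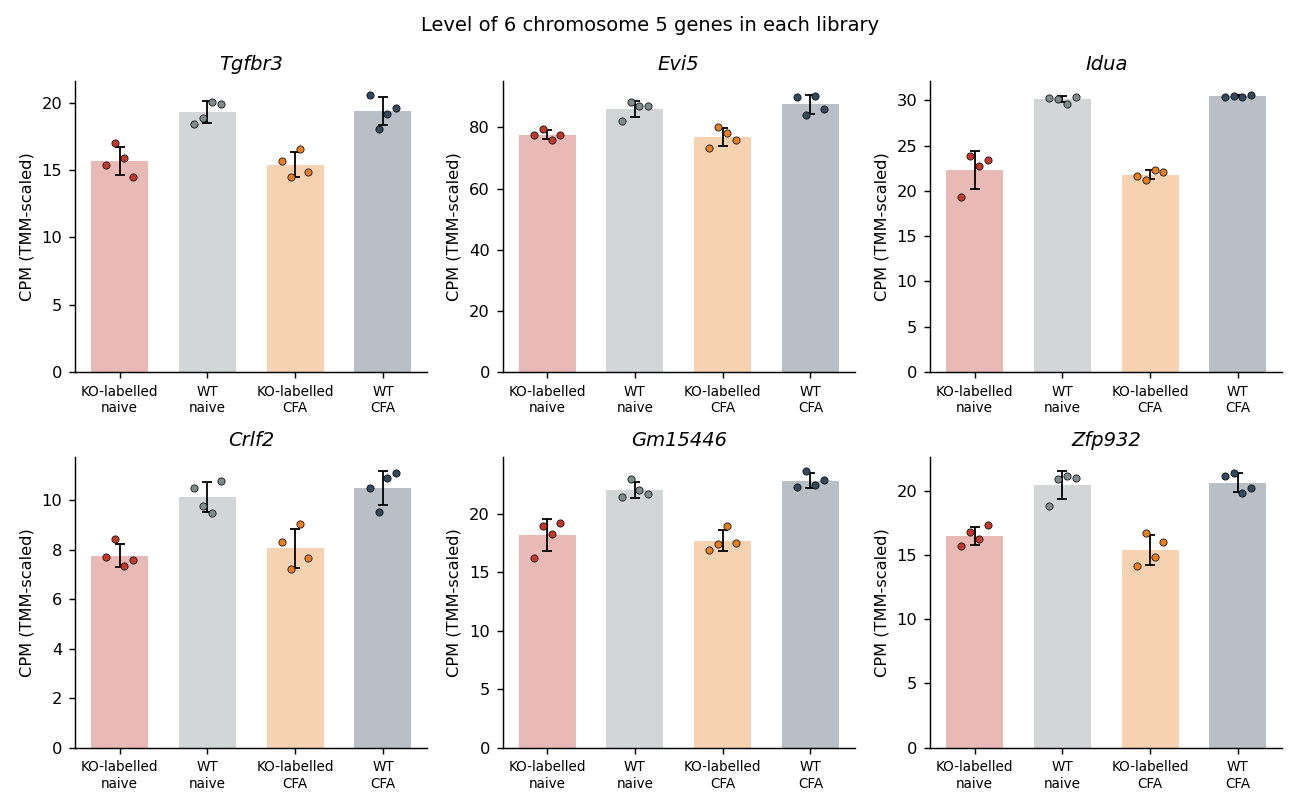
Level (CPM on TMM-scaled library sizes) of the 6 called members in every library, with points as libraries, bars as group means and whiskers as SD (n = 4 each). In each gene and treatment the KO-labelled points lie below the WT points, as for Idua at 19.3 to 23.9 CPM against 29.6 to 30.4 CPM in naive libraries.

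The remaining members have roles from ion transport to transcription. The first 15 members along the block, over the 2.11 Mb from the window start to Tgfbr3, were not called. They include the 3 volume-regulated anion channel genes Lrrc8b, Lrrc8c and Lrrc8d. Lrrc8d had 44.7, 45.1, 45.9 and 47.7 CPM in KO-labelled naive libraries, against 42.8, 43.3, 42.1 and 41.5 CPM in WT naive libraries. With CFA it had 45.2, 44.9, 38.1 and 41.2 CPM in KO-labelled libraries, against 39.1, 43.5, 44.4 and 40.3 CPM in WT libraries. The naive libraries did not overlap and the CFA libraries did, with folds of 1.08 (95% interval 1.0 to 1.16) and 1.02. Lrrc8b and Lrrc8c had naive folds of 1.04 and 0.997, and Lrrc8a, the obligatory channel subunit encoded outside the block, had 1.02. None of the 4 channel genes tested was called in any comparison.

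The block opens with guanylate-binding protein genes, which interferon induces in many cells. Gbp9 averaged 3.39 ± 0.635 CPM in KO-labelled naive libraries and 2.78 ± 0.646 CPM in WT naive libraries, and Gbp4 averaged 1.97 ± 0.402 and 1.52 ± 0.358 CPM. With CFA, Gbp9 averaged 3.17 ± 0.268 CPM in KO-labelled libraries and 2.74 ± 0.415 CPM in WT libraries, and Gbp4 2.2 ± 0.539 and 1.59 ± 0.414 CPM. All these libraries overlapped, and of 6 guanylate-binding protein genes tested none was called. Gm43302, beside them, is matched over 100% of its transcript by other genes, mainly Gbp6, so its level is uncertain.

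Between Tgfbr3 and Evi5 lie 7 members, among them Glmn and Rpap2, which share 276 exon bases on opposite strands. Rpap2, whose protein removes phosphates from the tail of RNA polymerase II, had 17.5, 17.9, 20.9 and 18.5 CPM in KO-labelled naive libraries, against 21.4, 21.5, 21.1 and 20.4 CPM in WT naive libraries. In CFA libraries it had 17.5, 18.2, 18.7 and 19.7 CPM in KO-labelled libraries, against 19.8, 20.1, 21.1 and 21.1 CPM in WT libraries. KO-labelled library 7 was the one within the naive WT range. The folds were 0.88 (95% interval 0.814 to 0.951) and 0.9 (0.835 to 0.971), not called, and the naive difference was called without that library (log2 fold change -0.24). Glmn, which codes for a regulator of cullin ubiquitin ligases, had 11, 9.9, 10.9 and 11.9 CPM in KO-labelled naive libraries, against 8.97, 10.5, 9.82 and 8.94 CPM in WT naive libraries. The CFA levels were 10.1, 10.6, 10.6 and 10.2 CPM in KO-labelled libraries, against 9.95, 9.24, 9.3 and 9.02 CPM in WT libraries. Its folds of 1.14 and 1.1 were on the other side of 1 and not called. Brdt, the testis bromodomain gene next to Tgfbr3, had folds of 0.982 and 1.01 at 12.4 CPM.

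Between Evi5 and Idua, 0.916 Mb apart, lie 15 members with no call. Mtf2 and Pcgf3, which code for polycomb proteins, had folds of 0.985 and 0.979 in naive and 0.956 and 0.99 in CFA libraries, and none of 16 polycomb genes was called in any comparison. Dr1, whose protein inhibits the TATA-binding protein, had folds of 1.02 and 0.955. Pigg, of GPI anchor synthesis, had folds of 1.03 and 0.962. Of 21 GPI anchor genes tested 1, Pigc outside the block, was called in a genotype comparison, with a fold of 0.852 in CFA libraries. The long intergenic RNA Gm10419 had 31.9, 29.0, 28.5 and 29.7 CPM in KO-labelled naive libraries, against 27.6, 26.4, 26.9 and 29.1 CPM in WT naive libraries. With CFA it had 32.0, 32.3, 31.7 and 29.7 CPM in KO-labelled libraries, against 27.7, 29.3, 29.4 and 26.6 CPM in WT libraries. Its folds of 1.09 and 1.11 (95% interval 1.04 to 1.19) made it the highest of the uncalled members of at least 10 CPM with CFA, and it was not called.

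Among all 21 uncalled members of at least 10 CPM, naive folds ran from 0.88 (Rpap2) to 1.15 (Cplx1) and CFA folds from 0.845 (Fgfrl1) to 1.11 (Gm10419). The other 21 uncalled members were under 10 CPM, with wider intervals, and took the range over all 42 to 0.702 (Gm8152) to 1.34 (Gbp4) in naive and 0.821 (4930522L14Rik) to 1.48 (Gm28050) in CFA libraries. Hfm1, a helicase gene of meiotic crossover, was among them at 4.63 CPM with folds of 0.939 and 1.09, and Barhl2, a homeobox gene, at 8.19 CPM with folds of 0.968 and 1.13. Of 6 crossover genes tested, neither member, Hfm1 nor Brdt, was called, and Ccnb1ip1 outside the block was called higher in both treatments (1.56 ± 0.381 CPM in KO-labelled naive and 0.0715 ± 0.0642 CPM in WT naive libraries). Of 10 diacylglycerol kinase genes none was called in a genotype comparison.

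By position, the called members were spread over 2.89 Mb from Tgfbr3 to Zfp932, with 31 members between these ends, 4 of them called. Of the members that start in each successive Mb of the window, 0 of 9, 0 of 6, 2 of 12, 1 of 15 and 3 of 6 were called. Successive called members were 638, 916, 894, 369 and 73.1 kb apart, with 7, 15, 2, 3 and 0 members between them, and 3 lie on each strand.

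At the edges of the window, the nearest genes outside were not called. Zfp951 and Abcg3, just before it, had naive folds of 1.25 and 1.26 and CFA folds of 1.1 and 1.04, and Gm17655 and Plcxd1, just after it, had 1.25 and 0.897 in naive and 0.976 and 1.02 in CFA libraries. In naive libraries, Zfp951 had every KO-labelled library above every WT library, and Plcxd1 had them all narrowly below. Over all tested genes, 3.83% were above and 3.41% below in this way. Gbp9 and Gbp4 are the first members inside and Gm15446 and Zfp932 the last. At the level limit, Gm26519, Gm8152 and Gm9727 were just inside with mean levels of 0.3094, 0.3154 and 0.3397 CPM, and Gbp11, Pde6b and 1010001B22Rik just outside with 0.2717, 0.2327 and 0.2324 CPM. These last had naive folds of 0.836, 0.569 and 0.769 and CFA folds of 1.14, 0.458 and 0.468, none called. With CFA, Pde6b and 1010001B22Rik had every KO-labelled library below every WT library.

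On the rest of the chromosome, the 5 Mb bin before the block held 38 tested genes with 1 called lower in naive libraries, and 1 lower and 1 higher with CFA. The bin after it held 80 tested genes with 1 lower and 2 higher in naive, and 1 lower and 3 higher in CFA libraries. No gene starting from 110 to 113 Mb was called. The next called gene after the block was Ssh1, which codes for a cofilin phosphatase and starts at 113.94 Mb. It averaged 54.8 ± 3.85 CPM in KO-labelled naive libraries and 43.9 ± 2.13 CPM in WT naive libraries, so it was higher, not lower, with a fold of 1.25. With CFA it averaged 59.1 ± 1.8 CPM in KO-labelled libraries and 42.5 ± 0.617 CPM in WT libraries.

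**Figure D3:**
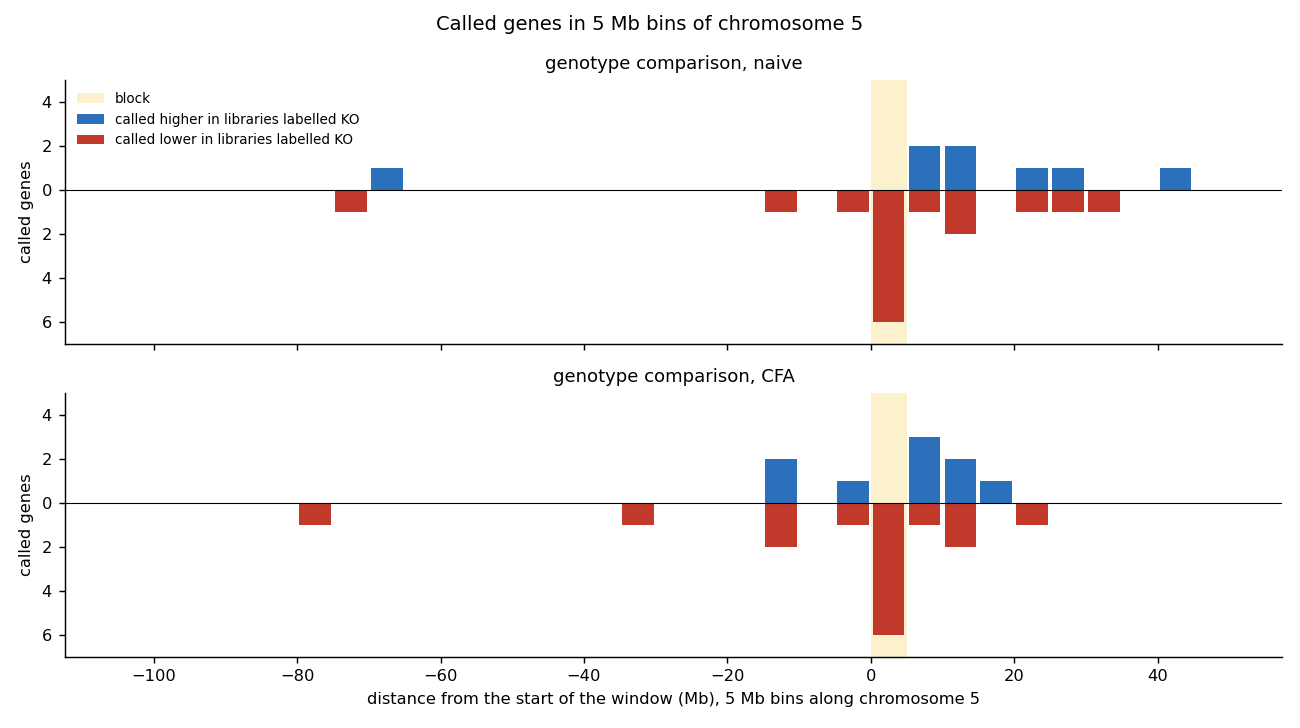
Number of genes called higher (up) or lower (down) in libraries labelled KO than in WT, in 5 Mb bins along chromosome 5 given by distance from the window start, in naive (top) and CFA (bottom) libraries. The shaded block holds 6 genes called lower and 0 called higher in each panel, and the bins on either side hold 1 to 4 calls.

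For CFA, whose comparisons were not used in choosing the block, none of the 48 members was called. Few of all tested genes were called either, so 0 of 48 is near the shares given here. It is not read as a trait of the block. In the libraries labelled KO, 0 members were called by edgeR, beside 0.185% of all tested genes, and DESeq2 called 0 of the 42 members it tested, beside 0.574%. At an unadjusted p under 0.05 there were 7 members (14.6%), beside 7.81% of all genes. In WT libraries, 0 members were called by edgeR, beside 2.23% of all genes, and 0 of 42 by DESeq2, beside 4.8%. At an unadjusted p under 0.05 there were 6 (12.5%), beside 17.6% of all genes. The median log2 fold change of the members for CFA was -0.01 in libraries labelled KO and -0.00 in WT, the same as for all genes within 0.01.

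The 6 members that differed by genotype varied little with CFA. In libraries labelled KO their folds, CFA over naive, were 0.983 for Tgfbr3 (95% interval 0.901 to 1.07), 0.99 for Evi5 (0.942 to 1.04), 0.98 for Idua (0.91 to 1.06), 1.03 for Crlf2 (0.923 to 1.16), 0.974 for Gm15446 (0.9 to 1.05) and 0.934 for Zfp932 (0.857 to 1.02). In WT libraries they were 1.0 for Tgfbr3 (0.923 to 1.09), 1.02 for Evi5 (0.968 to 1.07), 1.01 for Idua (0.944 to 1.08), 1.04 for Crlf2 (0.934 to 1.15), 1.04 for Gm15446 (0.962 to 1.12) and 1.01 for Zfp932 (0.928 to 1.09). None of the 12 intervals reaches below 0.857 or above 1.16.

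Larger CFA differences among the members did not pass the threshold. Fgfrl1 had 10, 9.46, 7.75 and 9.71 CPM in KO-labelled CFA libraries, against 10.9, 12.4, 10.7 and 15.5 CPM in KO-labelled naive libraries. These did not overlap, with a fold of 0.751 (95% interval 0.626 to 0.901) and an adjusted p of 0.323 by edgeR. In WT its fold was 0.875 (adjusted p 0.427 by edgeR). Tmem175 had every WT CFA library (31.7 to 33 CPM) below every WT naive library (33.5 to 36.5 CPM), with a fold of 0.941, not called. The share of all tested genes whose CFA and naive libraries did not overlap was not computed. Cplx1 had every WT CFA library above every WT naive library, with values given above, a fold of 1.22 (1.02 to 1.47) and an adjusted p of 0.225 by edgeR, and in libraries labelled KO a fold of 0.968. In the list of complexins and SNAREs, its relative Cplx2, encoded elsewhere, was called lower with CFA in WT libraries, with 610 ± 27.1 CPM in WT CFA and 708 ± 35 CPM in WT naive libraries (adjusted p 0.017 by edgeR). Of the other lists, Pigc and the diacylglycerol kinase gene Dgkg were called higher with CFA in WT libraries (folds 1.16 and 1.12), and no gene of the 11 lists was called for CFA in libraries labelled KO. The Edinger-Westphal markers Cartpt and Ucn were both called higher with CFA in WT libraries, with summed levels of 242 to 321 CPM in WT CFA and 14.5 to 58.1 CPM in WT naive libraries, and their part in the CFA comparison in WT was not tested.

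**Figure D4:**
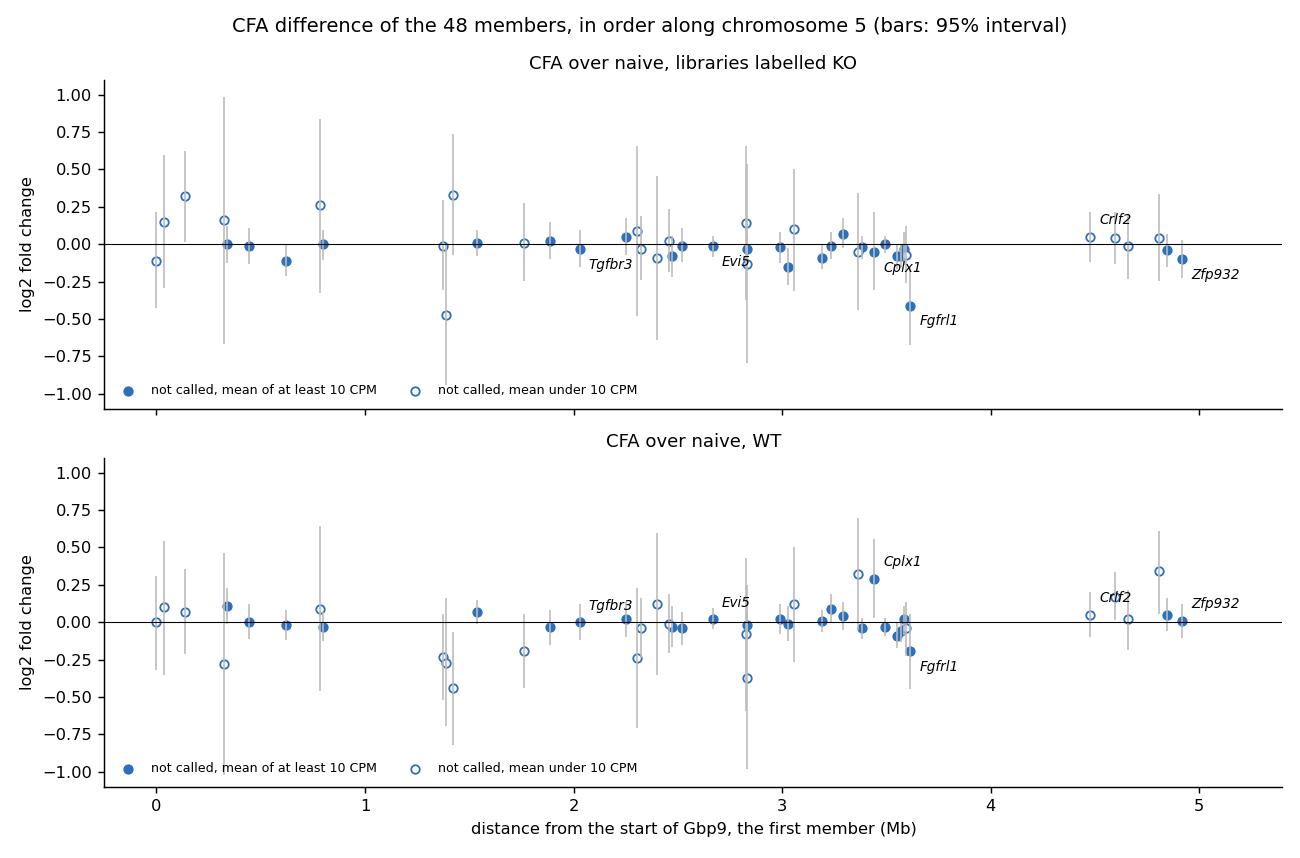
CFA difference of each of the 48 members (log2 fold change, CFA over naive, n = 4 each, with 95% intervals as bars) against its distance from the first member, Gbp9, in libraries labelled KO (top) and WT (bottom). No member was called in either panel, with Fgfrl1 at -0.41 in libraries labelled KO and Cplx1 at 0.29 in WT.

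The genotype differences were also compared between treatments by the interaction term, the log2 fold change (KO-labelled over WT) in CFA minus that in naive libraries. No member was called by edgeR, beside 0.0654% of all genes, and none by DESeq2, beside 0.493%, so the lack of calls is near both shares. At an unadjusted p under 0.05 there was 1 member (2.08%), beside 9.86% of all genes, the long intergenic RNA Gm28050, at 0.79 ± 0.0847 CPM in KO-labelled CFA, 0.533 ± 0.0699 in WT CFA, 0.626 ± 0.168 in KO-labelled naive and 0.718 ± 0.0951 in WT naive libraries (adjusted p 0.329 by edgeR). For the 6 called members the interaction was -0.03 for Tgfbr3, -0.04 for Evi5, -0.05 for Idua, -0.01 for Crlf2, -0.09 for Gm15446 and -0.11 for Zfp932 on the log2 scale, with SE of 0.08, 0.05, 0.07, 0.11, 0.08 and 0.08. A difference between treatments in how far these genes were lower was not detectable at this depth and number of libraries. The 6 were set apart because they were called lower in both treatments, and the interaction is computed from those same comparisons. Their small values are therefore a description and carry no test.

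The counts behind the 6 genes set the precision of their values. Reads per library ran from 133 (Crlf2) to 5769 (Evi5), and the standard deviation between libraries of a group was 0.326% to 9.87% of the mean, against a counting error of 1.54% to 6.74%. Idua in WT CFA libraries varied least, at 0.326%, which is below its counting error of 2.62%. The KO-labelled naive group, with the fewest reads, had counting errors of 2.13% for Evi5 to 6.74% for Crlf2. Of the 48 members, 23 share at least 1 exon base with another gene, on the same or the opposite strand, and reads in such shared stretches cannot be assigned with certainty. Of the 6, Evi5 shares 378 bases with Gm43592 on the opposite strand, Tgfbr3 297 with Gm43422 on the same strand, Gm15446 12 with Gm26808 on the opposite strand, and Crlf2 and Zfp932 none.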

How the data were processed

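For each of 16 libraries the authors deposited raw counts of reads in Ensembl genes, and per the submitters' processing notes used TopHat, DESeq2 and the build mm10. Which annotation release, counting mode and strand option they chose is not given in the sources used here. Per the labels' protocols, RNA was isolated with TRIzol from 4 punches of 2 mice per library and libraries were made with a TruSeq kit that does not mark strand. Reads listed as without a feature, ambiguous or not uniquely aligned (38% to 39.9% of those listed) were left out.

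Symbols and positions came from GENCODE, which matched 37607 of 38924 IDs. The members, gene lists and tests were chosen with earlier results of these data known. The model was fitted in edgeR 4.0.16 (R 4.3.3). Genes passed filterByExpr at a minimum count of 10 (18350 genes, 99.961% of counts, all 48 members), libraries were scaled by TMM, and counts were fitted in 1 robust quasi-likelihood model with a mean per group and all 16 libraries. Biological variation in common to the genes was 6.1% (coefficient of variation). Of the 5 contrasts, p-values were two-sided, and adjustment was over all genes. Intervals of folds are the model's SE times the t quantile at 95%. Levels are CPM on TMM-scaled library sizes, and replicates of a group differed by more than sampling noise (chi-square per degree of freedom 3.55 to 13.7 over 24 pairs). P-values measure the spread between these pools. Alternatives were DESeq2 size factors, no count filter, the DESeq2 1.42.0 Wald test, fits on only the groups compared, and leaving out each library. Values in every library are given for the members called in a genotype contrast and, for comparison, for 5 uncalled members of the gene lists (Lrrc8d, Cplx1, Gak, Dgkq and Tmed5). Other list members are given by group means or folds. Slc26a1, Glmn, Rpap2, Gm10419 and Fgfrl1 belong to no list and were chosen after their values were seen. Promoters came from RefSeq (GRCm38.p6), and coding stretches from the GENCODE annotation and the mm10 genome.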

Additional observations from a re-analysis of the deposited data

Results flagged for a closer look

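For 16 members given library by library, 64 groups of 4 libraries were examined for a library far from the other 3, and 2 were found, while chance alone marks about 1 group in 20. Zfp932 had 18.8 CPM in WT naive library 1, against 20.9 to 21.1 CPM in the other 3 of its group. Its distance to the nearest made up 0.902 of the group's range, past the critical ratio of Dixon's test for 4 samples, and it lies on the side of the KO-labelled naive libraries (15.7 to 17.3 CPM) without reaching them. Cplx1 had 628 CPM in WT CFA library 9, against 700 to 702 CPM in the other 3, a ratio of 0.976.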

How the results depend on the processing

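All 73 alternative counts of members or called members stayed within 1.5 times the main count. In naive libraries 6 members were called under DESeq2 size factors, without a count filter and by DESeq2, 5 with only the 2 groups compared, and 4 to 6 without 1 library. With CFA the counts were 6 under the same settings except for DESeq2, which called 7 by adding Gak (adjusted p 0.0212), and 6 to 7 without 1 library, where leaving out KO-labelled CFA library 15 added Tmed5 (0.0487). For CFA against naive and for the interaction the counts were 0 under every alternative run. Summing Zfp932 and Gm15446, an alternative chosen after seeing the data, gave 5 in each genotype comparison. Evi5 lost its naive call in the fit on 2 groups (adjusted p 0.051) and without 7 of the 8 naive libraries in turn (0.0612 to 0.105). Crlf2 lost it without WT naive library 4 (0.0502), which gave the lowest count of 4, and Rpap2 gained a call without KO-labelled naive library 7 (0.0225). Over all fits Idua ran from 0.72 to 0.777 in naive and 0.709 to 0.721 in CFA libraries. No direction of a called member reversed. Scaled levels chose the same 48 members. No paired analysis was possible because library numbers run through the series and no number is shared between groups. Depth limits the members under 10 CPM most.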
